A study of Arabidopsis thaliana with 18 samples.

Results

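The *SMALL AUXIN UP RNA* (*SAUR*) genes are the largest family of genes that plants switch on early after the hormone auxin. They encode short proteins, many of which bind and inhibit D-clade type 2C protein phosphatases (PP2C.D). The proton pumps of the plasma membrane then stay phosphorylated and active, the cell wall is acidified, and the cell expands. Many *SAUR* genes stand side by side in tandem arrays, and auxin response factors, phytochrome-interacting factors (PIFs) and brassinosteroid factors are known to act at their promoters.

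The members were the protein-coding genes of the RefSeq annotation of TAIR10.1 with *SAUR* and a number as symbol or with a SAUR-like auxin-responsive protein as product, 79 of the 27444 protein-coding genes of the nuclear chromosomes. The product chose 78 of them. *AT5G01830* entered by its symbol alone (*SAUR21*) although its product is an ARM repeat protein, and it is given by its locus below, since *SAUR21* is also the synonym of *AT5G18030*. *AT1G29490* is also given by its locus, because its synonym is the symbol of *AT1G29510* (*SAUR68*). Of the 79 members, 16 carry a *SAUR* symbol and the others were named by their synonyms. They are short genes, with a median of 813 bp against 2078 bp for all protein-coding genes, and 72 of them have 1 exon in every transcript. Without *AT5G01830* the encoded proteins were 86 to 190 residues long.

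The data are chromatin immunoprecipitation sequencing (ChIP-seq) peak lists for BRIP2-GFP and BRIP1-GFP, green fluorescent protein fusions of a pair of homologous subunits of the SWI/SNF chromatin remodelling complexes that contain the ATPase BRAHMA (BRM). The groups were BRIP2-GFP in *brm-1* and BRIP1-GFP in *brm-1*, 2 libraries each, from 14-day-old seedlings grown on Murashige and Skoog medium in long days, and both groups share the *brm-1* mutation of *BRM*. The sources used here give neither the promoters of the transgenes nor the number of lines, and the other 14 of the 18 samples (BRM-GFP, the fusions under other titles and the inputs) were not analysed here. The titles call the replicates biological, and every list comes from *brm-1*, so no value shows what BRM does at a *SAUR* gene.

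The lists held 7877 and 6288 nuclear peaks for BRIP2 and 3637 and 5343 for BRIP1, with a median fold of 2.44 to 2.64 over the local control. The median summit rested on 64.0 to 103 fragments, as solved from the deposited fold and p-value. The antibody label of BRIP1 replicate 2 reads none against its title. Without that library, 25 members had a summit in all of the remaining 3, against 15.5% of all protein-coding genes. A gene without a listed peak is a gene at which the authors' caller passed no peak, and its signal is unknown. Weak binding in many cells and strong binding in few cells cannot be told apart in whole seedlings.

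A member was counted as bound by a library when a peak summit lay from 3000 bp upstream of its transcription start site (TSS) to 1000 bp past its 3′ end. Summits of all 4 libraries were found at 24 of the 79 members (30.4%), against 14.9% of all protein-coding genes. Both BRIP2 libraries had a summit at 29 members (36.7%, against 26.7% of all genes). Both BRIP1 libraries had one at 25 members (31.6%, against 15.8% of all genes). No library had one at 37 members (46.8%, against 60.4% of all genes). The share of *SAUR* genes in all 4 lists was thus above that of all genes, while nearly as many members lacked any peak as had at least 1.

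**Figure D1:**
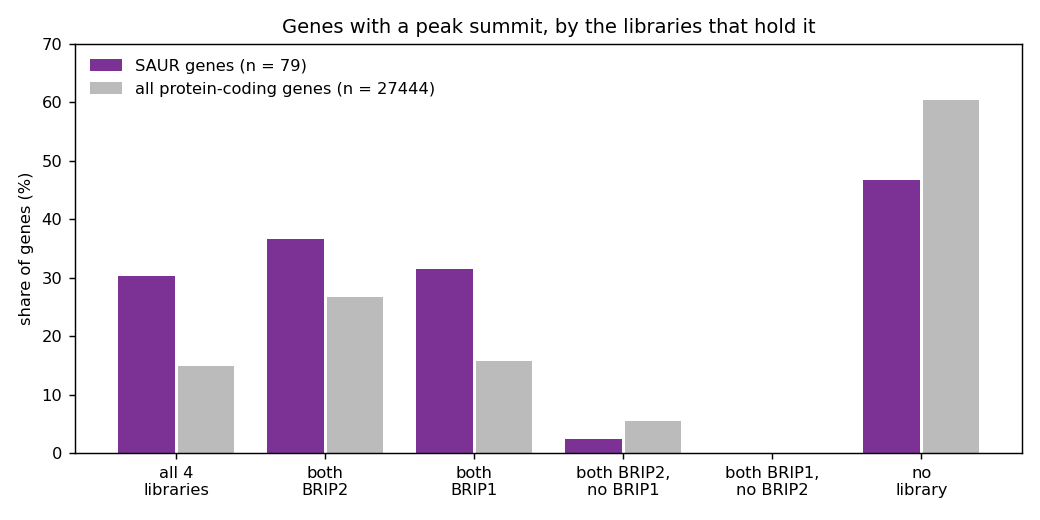
Share of genes (percent) whose window held a peak summit, for the 79 *SAUR* genes (purple) and the 27444 protein-coding genes (grey), by the libraries that held it. The *SAUR* bars are higher for all 4 libraries (30.4 against 14.9%), and lower for both BRIP2 libraries without BRIP1 (2.53 against 5.62%) and for no library (46.8 against 60.4%).

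The window gives short genes less room than long ones inside the gene, and it can give a summit to several neighbours. With the same window for every gene, from 3000 bp upstream to 1000 bp downstream of the TSS, 23 members were in all 4 lists, against 11.5% of all genes. Within 2000 bp of the TSS the count was 19, against 9.96% of all genes. From 1000 bp upstream to the 3′ end it was 11, against 6.96%. With each summit given only to the gene of the nearest TSS it was 18, against 9.54%. The members' share (from 13.9% in the 1000 bp window) stayed above that of all genes under each of these 4 rules.

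There were 24 separate sites at members, a site being a connected group of overlapping peaks of all 4 libraries with a summit in the window of a member, out of 2982 such regions in the genome. They lay in the windows of 25 members, the 24 in all 4 lists and *SAUR56*, whose site had summits of only 3 libraries inside the window. The best summits of the *SAUR56* site lay 3414 to 3467 bp upstream, outside the window and nearest to *ERD14*. At the *SAUR41* site, the summits of BRIP2 replicate 1 and BRIP1 replicate 2 lay 3230 and 3214 bp upstream, also outside the window. Of the sites, 5 lay in the windows of 2 or 3 members, and some members had more than 1 site. At 18 sites the nearest TSS was that of a member, and at 6 that of another gene. The mean summit was intergenic at 23 of the 24 sites (95.8%, against 77.1% of all regions in 4 libraries). It lay in a 5′ untranslated region once, at *SAUR78*. At *SAUR50*, counted as intergenic by the mean, BRIP2 replicate 1 and BRIP1 replicate 2 had summits 77 and 42 bp inside the gene. The median width of the sites was 826 bp, against 884 bp for all such regions.

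The sequence under a summit is shown for 6 intergenic sites at which the 4 libraries placed it within 50 to 175 bp of each other. They are the strong sites of *SAUR14* with *SAUR15*, *SAUR4* and *SAUR72*, the sites of *SAUR71* and *SAUR36* for their motifs, and the weakest site, that of *SAUR44*. Each sequence is the 121 bases around the mean summit, from TAIR10.1, read 5′ to 3′ on the plus strand, with matches to a searched motif in capitals.

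SAUR14 and SAUR15, site between them (chr4:18125712-18125832, plus strand): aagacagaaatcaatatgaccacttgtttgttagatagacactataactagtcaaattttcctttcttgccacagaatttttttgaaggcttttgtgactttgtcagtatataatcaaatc

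SAUR4, upstream site (chr4:16596431-16596551, plus strand): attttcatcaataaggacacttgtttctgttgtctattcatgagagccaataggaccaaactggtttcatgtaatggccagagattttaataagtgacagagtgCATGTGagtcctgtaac

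SAUR72, upstream site (chr3:4081641-4081761, plus strand): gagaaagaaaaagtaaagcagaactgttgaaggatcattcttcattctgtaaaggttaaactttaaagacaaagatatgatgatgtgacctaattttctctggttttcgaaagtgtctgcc

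SAUR71, upstream site (chr1:21016850-21016970, plus strand): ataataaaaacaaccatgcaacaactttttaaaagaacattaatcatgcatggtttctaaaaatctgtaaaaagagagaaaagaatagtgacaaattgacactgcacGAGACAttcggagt

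SAUR36, upstream site (chr2:18641072-18641192, plus strand): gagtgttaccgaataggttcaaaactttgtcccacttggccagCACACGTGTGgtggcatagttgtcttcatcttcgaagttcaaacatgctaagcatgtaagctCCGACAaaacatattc

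SAUR44, upstream site (chr5:799930-800050, plus strand): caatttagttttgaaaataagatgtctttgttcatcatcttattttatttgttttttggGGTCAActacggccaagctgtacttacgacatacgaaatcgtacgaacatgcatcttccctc

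The sequences at *SAUR14*/*SAUR15* and *SAUR72* hold no match. At *SAUR4* the capitals are CATGTG, an E-box bound by PIFs, and at *SAUR71* GAGACA, the other strand of the auxin response element TGTCTC. At *SAUR36* they are a G-box (CACGTG) that overlaps CGTGTG, a brassinosteroid element, on each strand, and CCGACA, the other strand of the auxin response element TGTCGG. At *SAUR44* they are GGTCAA, the other strand of the W-box TTGACC, which WRKY factors bind. Within 100 bp of the mean summit, a wider stretch than is shown, CATGTG was also present at *SAUR14*/*SAUR15* and at *SAUR72*. There the TCP core GGNCCC was present at *SAUR14*/*SAUR15* and at *SAUR4*.

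*SAUR15* (also known as *SAUR-AC1*, long used as an auxin marker) and *SAUR14* are transcribed away from each other, with 497 bp between their start sites, and share the strongest site of the family. The fold there was 5.18 and 5.03 in the BRIP2 libraries and 4.71 and 5.79 in the BRIP1 libraries. The summits rested on 158 and 121 fragments for BRIP2 and on 152 and 243 for BRIP1. By mean fold it stood at the 97.8 percentile of the 2982 regions. Its summits lay 169 to 265 bp upstream of *SAUR14* and 233 to 329 bp upstream of *SAUR15*, between the start sites in every library, so the site cannot be told apart as that of either gene. The values of BRIP2 fell inside the range of BRIP1.

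*SAUR50*, which with *SAUR16* promotes cotyledon opening in the light, came next, with a best fold of 4.40 and 3.80 for BRIP2 and 4.25 and 4.39 for BRIP1. The groups overlapped. Its peaks had their summits on either side of the start site, at 77 and −420 bp for BRIP2 and at −432 and 42 bp for BRIP1, negative being upstream. In each protein 1 replicate thus had its best summit just inside the gene and the other upstream.

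*SAUR4* and *SAUR5* shared a site with a fold of 4.20 and 3.42 for BRIP2 and of 3.42 and 4.06 for BRIP1. It lay 116 to 173 bp upstream of *SAUR4* and 2434 to 2491 bp upstream of *SAUR5*, on the far side of *SAUR4*. The nearest start site was that of *SAUR4*, so *SAUR5* is counted in all 4 lists by the wide window only.

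*SAUR72* had folds of 3.88 and 3.14 for BRIP2 and of 3.17 and 3.46 for BRIP1, from a site 2052 to 2102 bp upstream whose nearest start site was that of *AT3G12833*. *SAUR69* had 3.75 and 3.75 for BRIP2 and 2.96 and 3.11 for BRIP1, and its summits lay 1702 to 1832 bp downstream of the start, past the 3′ end. *SAUR78* had 3.88 and 3.18 for BRIP2 and 3.05 and 3.15 for BRIP1, with summits 46 to 79 bp inside the transcript. At *SAUR69* and *SAUR78* both BRIP2 folds were above both BRIP1 folds, and at *SAUR72* they overlapped.

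*SAUR51* had best folds of 3.14 and 2.97 for BRIP2 and of 2.89 and 3.40 for BRIP1, drawn from a pair of sites: an upstream one 2922 bp wide, the broadest of the 24, and one 188 to 354 bp from the start. *SAUR41*, a gene of cell expansion, had 3.32 and 3.22 for BRIP2 and 2.34 and 3.23 for BRIP1. The call at *SAUR41* joined separate places: in 3 libraries the best summit was 1265 to 1317 bp upstream, and in BRIP1 replicate 1 the only summit was 2639 bp upstream, nearest to *AT1G16520*. *SAUR74* had 3.15 and 2.64 for BRIP2 and 3.19 and 2.94 for BRIP1, 2050 to 2082 bp upstream. Here too the nearest start site belonged to another gene, *SMP1*.

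*SAUR71*, the last of the 12 members with the highest mean fold, had 2.93 and 2.72 for BRIP2 and 3.23 and 3.04 for BRIP1, 346 to 521 bp upstream. It was the only one of the 24 sites at which both BRIP2 folds were below both BRIP1 folds (4.17% of sites, against 4.12% of all regions). The other 12 members in all 4 lists were *SAUR59*, *SAUR16*, *SAUR1*, *SAUR36*, *SAUR3*, *SAUR2*, *SAUR13*, *AT5G01830*, *SAUR6*, *SAUR7*, *SAUR12* and *SAUR44*, with mean folds of 2.94 down to 1.99. *SAUR44* had the weakest site, with 1.82 and 2.02 for BRIP2 and 1.97 and 2.16 for BRIP1, from 55 and 48 fragments for BRIP2 (95% Poisson intervals 41.4 to 71.6 and 35.4 to 63.6) and 63 and 90 for BRIP1 (48.4 to 80.6 and 72.4 to 111). These intervals cover counting error only.

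**Figure D2:**
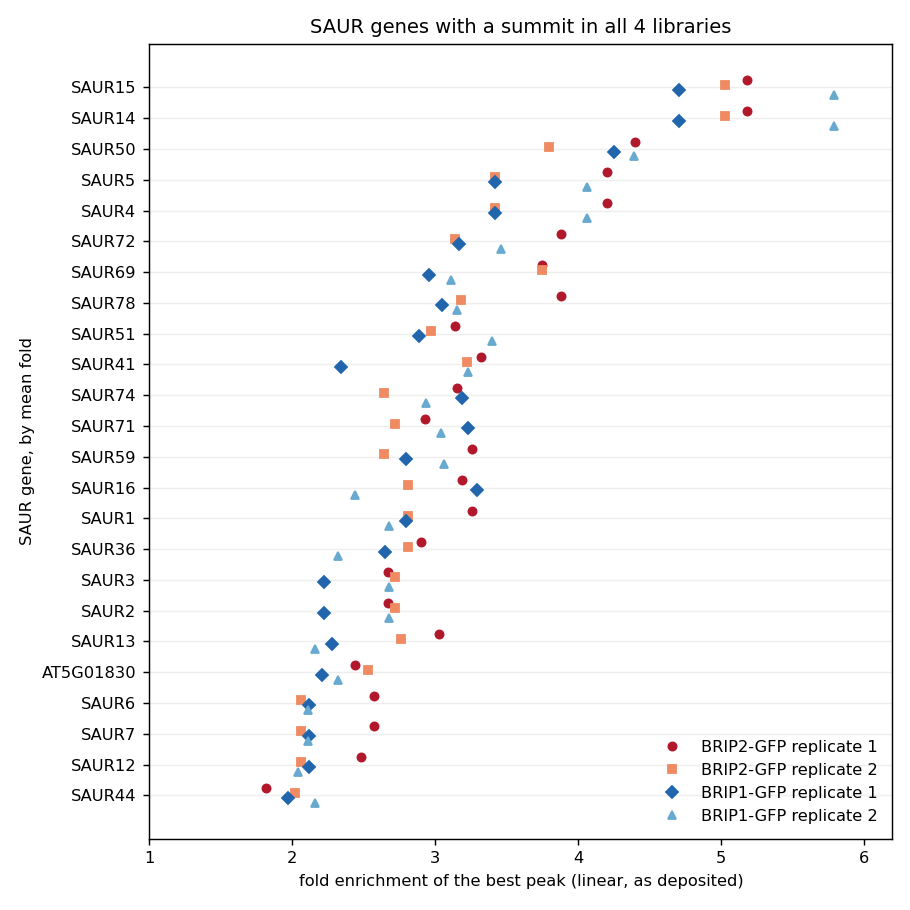
Fold enrichment of the best peak (linear, as deposited) at the 24 members with a summit in all 4 libraries, ordered by mean fold with the highest at the top. Each row has 4 points, BRIP2 replicates (red and orange) above BRIP1 replicates (dark and light blue). *SAUR14* and *SAUR15* share 1 site between 4.71 and 5.79, and *SAUR44* sits lowest, between 1.82 and 2.16.

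By protein, a summit was present at 40 and 31 members in the BRIP2 libraries (36.1 and 29.0% of all genes) and at 26 and 30 members in the BRIP1 libraries (16.8 and 24.1% of all genes). The means were 35.50 ± 6.36 for BRIP2 and 28.00 ± 2.83 for BRIP1 (SD, n = 2 each). The difference of 7.5 members gave p = 0.33 in a two-sided exact permutation test over the 4 libraries, which is the smallest p that 2 against 2 allows. When all lists were cut to the 3637 best peaks by q, the difference turned to −2.5 members (exact permutation p = 0.667), so its direction changed with the lengths of the lists.

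Members bound by a single protein were few. Both BRIP2 libraries and no BRIP1 library had a summit at 2 members (2.53%, against 5.62% of all genes), and the reverse was found at 0 members (against 0.135% of all genes). The 2 were *SAUR52*, with best folds of 2.09 and 2.23, and *SAUR49*, with folds of 2.64 and 2.43. At *SAUR49* the summits coincided, 375 and 376 bp upstream, but the start site nearest to them was that of another gene. At *SAUR52* both replicates had a summit inside the gene, with folds of 2.09 and 2.19, and another upstream, with folds of 2.05 and 2.23. On the map of the cluster, those inside the gene lay apart, at 6.373 and 5.796 kb. The upstream ones lay close together, at 8.175 and 8.157 kb. Neither gene had a BRIP1 peak. Without BRIP2 replicate 2 the count was 10 members (12.7% of all genes), and without BRIP1 replicate 2 it was 4 (11.2% of all genes), while with lists of equal length it was 0 (1.05% of all genes).

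Of the members outside these groups and the 37 without a peak, 9 had a summit in 1 library, 3 in 1 library of each protein and 4 in 3 libraries. *SAUR18* and *SAUR32* lacked only BRIP1 replicate 1, the shortest list, and had folds of 3.16 and 2.68 (*SAUR18*) and of 2.31 and 2.06 (*SAUR32*) for BRIP2, against 2.23 and 1.87 in BRIP1 replicate 2. *SAUR56* lacked BRIP2 replicate 1 and *SAUR77* lacked BRIP1 replicate 2. *SAUR10*, *SAUR30* and *SAUR31* each had a summit in replicate 1 of BRIP2 and replicate 2 of BRIP1, with folds of 1.88 to 2.22.

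At the 24 sites the fold was compared after subtracting, in each library, the median log2 fold of the 2982 regions. The mean centred log2 fold was −0.12 and −0.15 in the BRIP2 libraries and 0.01 and −0.01 in the BRIP1 libraries. The BRIP2 minus BRIP1 difference of −0.13 (n = 2 each) gave the smallest possible p in the exact permutation test, 0.33, with the values of the groups apart. Without the centring the difference was 0.10, in the other direction. Both BRIP2 folds exceeded both BRIP1 folds, uncentred, at 9 of the 24 sites (37.5%), against 60.7% of all regions. By this mean, *SAUR* sites stood near the median of the 2982 shared regions in the BRIP1 libraries and somewhat below it in the BRIP2 libraries. Against all peaks of a list, the median fold was higher in each library both at the sites and at the 2982 regions. Both sets need a peak in every list, so this is no trait of *SAUR* sites. For BRIP2 the medians were 2.98 and 2.77 at sites, 3.33 and 3.18 at regions and 2.56 and 2.64 in the lists. For BRIP1 they were 2.79 and 2.78 at sites, 2.68 and 2.85 at regions and 2.59 and 2.44 in the lists.

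**Figure D3:**
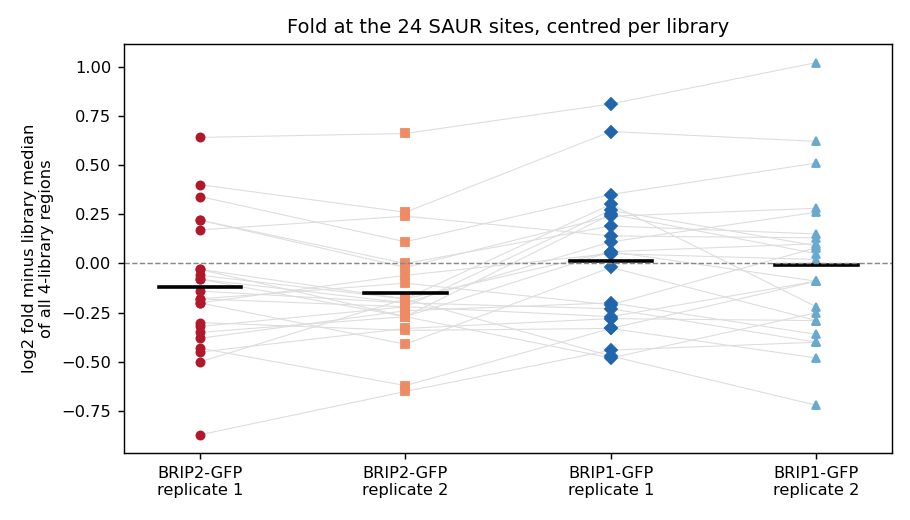
Log2 fold minus the library's median over the 2982 regions with a peak of all 4 libraries (dashed line at 0), for the 24 *SAUR* sites in each library. Points are sites, thin lines join the same site, and black bars are the means: −0.12 and −0.15 for BRIP2, 0.01 and −0.01 for BRIP1.

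Of the members, 37 stood in 9 tandem clusters, in which no more than 10000 bp separates neighbouring members, and 42 stood singly. Summits of all 4 libraries were found at 14 of the 37 tandem members (37.8%) and at 10 of the 42 single ones (23.8%), against 14.9% of all genes. With each summit given to the nearest start site at any distance these counts were 8 and 10, against 9.54% of all genes. The higher tandem share was thus not kept. The 10 single members were not the same ones: *SAUR72* and *SAUR74* left, and *SAUR32* and *SAUR53* entered. Members of a cluster are not independent, and the clusters are described in turn.

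The cluster *SAUR13* to *SAUR16* on chromosome 4 was occupied throughout. All 4 members had summits in all 4 libraries, from 4 sites, or 2.91 sites per 10 kb of the cluster with its windows, against 0.25 regions per 10 kb of the nuclear genome. The genome value also covers sequence outside gene windows, so these densities are not like for like. Apart from the site between *SAUR14* and *SAUR15*, *SAUR16* had folds of 3.19 and 2.81 for BRIP2 and 3.29 and 2.44 for BRIP1, and *SAUR13* had 3.03 and 2.76 for BRIP2 and 2.28 and 2.16 for BRIP1. At *SAUR13* the site lay 1535 to 1650 bp upstream and was nearest to *AT4G38810*.

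The longest cluster, also on chromosome 4, runs over 22389 bp with *SAUR49*, *SAUR50* and *SAUR1* to *SAUR5*. In it 6 of 7 members were in all 4 lists, all but *SAUR49*, from 4 sites (1.52 per 10 kb). The 5 members *SAUR1* to *SAUR5* drew on 3 of them. *SAUR1* had 3.26 and 2.81 for BRIP2 and 2.80 and 2.68 for BRIP1, 1856 to 1984 bp upstream, and *SAUR2* and *SAUR3*, transcribed away from each other, shared 2.67 and 2.72 for BRIP2 and 2.22 and 2.68 for BRIP1 207 to 298 bp before *SAUR3*. With the nearest start site 4 members of this cluster were in all 4 lists.

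The pair *SAUR51* and *SAUR52* on chromosome 1 (1 of 2 members in all 4 lists) and the trio *SAUR7*, *SAUR6* and *SAUR12* on chromosome 2 (3 of 3, from 1 site) were the other occupied clusters. The chromosome 2 site was weak, with folds of 2.48 and 2.06 for BRIP2 and 2.12 and 2.04 for BRIP1, at the 3.45 percentile of all regions, and it was nearest to *SAUR6*, which alone of the trio was kept by the nearest-start rule.

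The remaining 5 clusters had no site of 4 libraries. No library had a summit at *SAUR61* to *SAUR65* or at *AT1G29490*, *SAUR66* and *SAUR68*, neighbouring arrays on chromosome 1, at *SAUR19* to *SAUR24* on chromosome 5, or at *SAUR70* and *SAUR76* on chromosome 5. *SAUR19* and its neighbours are the members best known as PP2C.D inhibitors, *SAUR63* promotes organ elongation, and *SAUR62* acts in pollen tubes. *SAUR29*, *SAUR28*, *SAUR27*, *SAUR73* and *SAUR26* on chromosome 3, which include the temperature-responsive *SAUR26*, had 1 summit in BRIP2 replicate 1 alone, with a fold of 2.44 between *SAUR28* and *SAUR27*. The nearest regions of 4 libraries lay 10988 to 116196 bp from the outermost members of these clusters. The clusters span 3508 to 21536 bp, and the genome holds 0.25 regions of 4 libraries per 10 kb.

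**Figure D4:**
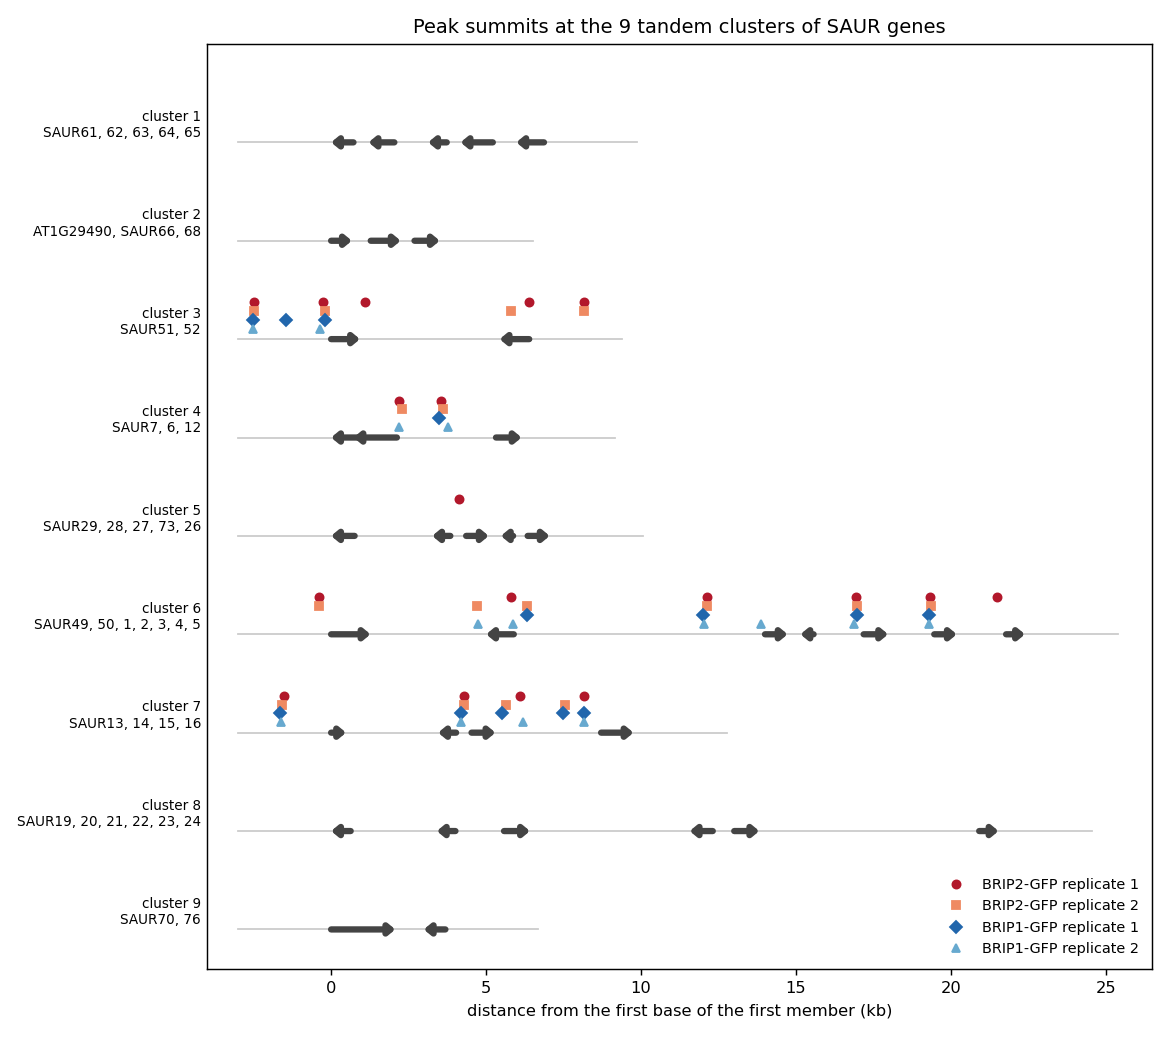
Maps of the 9 tandem clusters, drawn to 1 scale in kb from the first base of the first member, with members as arrows in the direction of transcription and a grey line reaching 3 kb past each end. Points are peak summits in the members' windows, BRIP2 replicates above BRIP1 replicates. Clusters 3, 4, 6 and 7 carry summits of all 4 libraries, cluster 5 carries 1 summit of BRIP2 replicate 1, and clusters 1, 2, 8 and 9 carry none.

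Reads of near-identical copies can be lost in alignment, so the uniqueness of the members' own sequence was measured as the share of words found once in the nuclear genome, over each gene and 1000 bp upstream. For words of 50 bases it was 81.2 to 100% in *SAUR61* to *SAUR65*, 83.3 to 99.6% in the *SAUR66* cluster and 93.2 to 99.8% in *SAUR19* to *SAUR24*. For words of 150 bases it was at least 94.0, 94.8 and 100% in the same clusters. It was 100% for both lengths at all 24 members in all 4 lists and at all members of the chromosome 3 cluster, which has no site of 4 libraries. The proteins of *SAUR19* to *SAUR24* were 90.0 to 97.7% identical to each other and those of *SAUR61* to *SAUR65* 65.7 to 87.2%. The most alike pair of a cluster reached 84.4 to 97.7% in 4 of the 5 clusters without a site and 29.1% in the fifth (*SAUR70* and *SAUR76*), against 38.9 to 67.6% in the 4 occupied clusters. The sources used here do not give the read length, and the part of lost reads in the missing peaks was not tested.

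Summits in the members' windows lay far upstream more often than those of all genes. Of the pairs of a member and a summit, 51.8 and 51.2% for BRIP2 and 51.4 and 53.3% for BRIP1 fell more than 1000 and up to 3000 bp upstream of the start, against 31.9 to 35.7% for all genes. The last 1000 bp before the start held 26.7 to 32.6% of them, against 27.9 to 29.8% for all genes. The gene body held 5.71 to 12.5%, against 17.0 to 19.0%, and the 1000 bp past the 3′ end 7.14 to 11.4%, against 18.8 to 19.9%. A *SAUR* gene body is shorter than that of other genes, so its share of the window is smaller too. A summit in the windows of several genes counts once for each of them. Some far summits, as at *SAUR72*, *SAUR74* and *SAUR13*, were nearest to the start site of another gene.

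**Figure D5:**
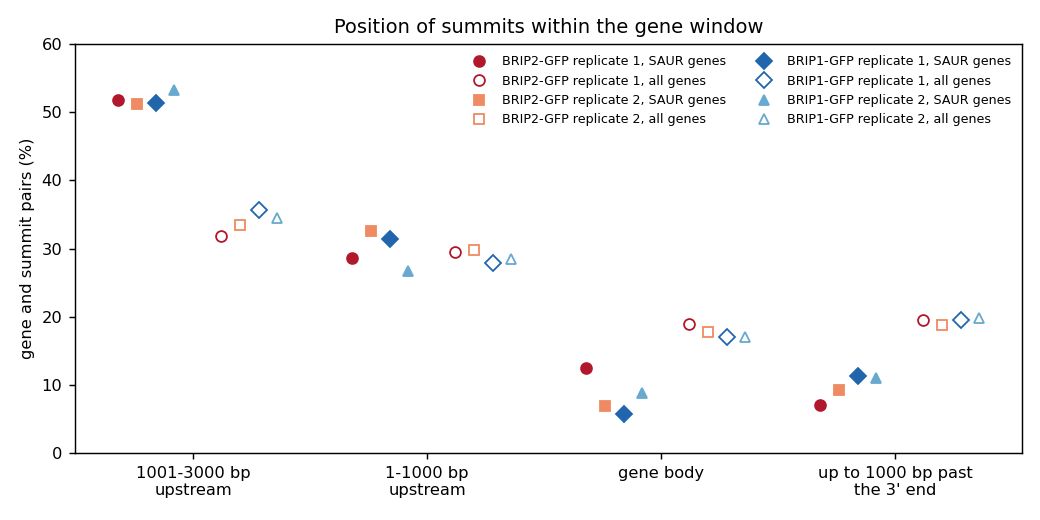
Share of gene and summit pairs (percent) by position in the window, for *SAUR* genes (filled) and all protein-coding genes (open), with 1 point per library. For *SAUR* genes 51.2 to 53.3% of pairs lie between 1000 and 3000 bp upstream, against 31.9 to 35.7% for all genes.

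The members of known role were spread over these outcomes. *SAUR15*, *SAUR36* (leaf senescence) and *SAUR41* were in all 4 lists, *SAUR32* in 3 and *SAUR10* in 2. *SAUR36* had best folds of 2.90 and 2.81 for BRIP2 and 2.65 and 2.32 for BRIP1, from sites on both sides of the gene. *SAUR26* had a summit in 1 list. *SAUR9*, *SAUR19* to *SAUR24*, *SAUR62*, *SAUR63*, *SAUR75* and *SAUR76* had none in any list.

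The letters of 12 motifs were searched on both strands within 100 bp of the mean summit of the 24 sites. At the sites of *SAUR50*, *SAUR16* and *SAUR41*, the broad site of *SAUR51* and the site downstream of *SAUR15*, the summits spread over 509 to 1054 bp. No library had its summit within 100 bp of the mean there, so those stretches lie between summits. TGTCTC was present at 1 site (4.17%, 95% Wilson interval 0.739 to 20.2%), against 16.6% of all regions of 4 libraries, and TGTCGG at 2 (8.33%, against 6.67%). The G-box CACGTG was at 1 (4.17%, against 19.0%), CATGTG at 4 (16.7%, against 20.6%), and the brassinosteroid elements CGTGTG and CGTGCG at 2 and 1 (8.33%, against 10.8%, and 4.17%, against 3.66%). The TCP core GGNCCC was at 6 (25%, against 23.4%), the W-box TTGACC at 4 (16.7%, against 13.6%) and the GA repeat GAGAGAGA at 2 (8.33%, against 8.85%). Site II TGGGCC, the telobox AAACCCTA and the evening element AAATATCT were at 0 sites, where the interval reaches 13.8%, against 7.55, 1.48 and 3.39% of all regions. With 24 sites the intervals are wide, and each of the 12 holds the share of all regions. Within 150 bp TGTCTC was still at 1 site (4.17%, 0.739 to 20.2%), against 21.9% of all regions, which lies outside the interval. No other interval, for any motif within 50, 100 or 150 bp, missed the share of all regions. The intervals take the sites as independent, which sites of the same cluster are not, so no depletion is concluded.

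The promoters themselves, from 250 bp before to 50 bp after each start site, gave a clearer contrast for CATGTG. It was present in 32 of the 79 members (40.5%), against 12.9% of all promoters, and in 25 of the 37 tandem members (67.6%) against 7 of the 42 single ones (16.7%). TGTCTC was in 11 members (13.9%, against 14.2%), TGGGCC in 2 (2.53%, against 15.5%), GGNCCC in 14 (17.7%, against 8.68%), CACGTG in 1 (1.27%, against 7.68%) and the TATA box TATAAA in 45 (57.0%, against 52.1%). By peaks, CATGTG was in 9 of the 24 members in all 4 lists (37.5%) and in 23 of the other 55 (41.8%), and it was in 16 of the 21 members of the 5 clusters without a site of 4 libraries (76.2%). Tandem copies share descent, so these promoters are not independent of each other.

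For each cluster with such a match, the 130 bases before the start of the first member that has CATGTG there are shown, from TAIR10.1, 5′ to 3′ in the direction of transcription, with CATGTG or its other strand CACATG in capitals.

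SAUR61 (chr1:10302100-10302229, minus strand): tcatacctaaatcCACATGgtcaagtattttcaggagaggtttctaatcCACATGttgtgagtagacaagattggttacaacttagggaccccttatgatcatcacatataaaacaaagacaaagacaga

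AT1G29490 (chr1:10319602-10319731, plus strand): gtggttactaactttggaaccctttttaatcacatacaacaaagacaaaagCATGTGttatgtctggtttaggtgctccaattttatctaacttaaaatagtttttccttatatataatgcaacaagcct

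SAUR51 (chr1:28377247-28377376, plus strand): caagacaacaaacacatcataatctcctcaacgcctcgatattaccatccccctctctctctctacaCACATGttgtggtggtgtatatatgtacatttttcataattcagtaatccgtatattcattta

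SAUR6 (chr2:9086030-9086159, minus strand): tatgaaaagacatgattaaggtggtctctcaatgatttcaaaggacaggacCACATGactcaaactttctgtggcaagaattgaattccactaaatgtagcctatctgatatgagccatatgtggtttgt

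SAUR28 (chr3:980563-980692, minus strand): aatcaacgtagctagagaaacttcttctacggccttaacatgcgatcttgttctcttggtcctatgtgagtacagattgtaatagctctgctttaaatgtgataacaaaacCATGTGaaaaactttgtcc

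SAUR1 (chr4:16591049-16591178, plus strand): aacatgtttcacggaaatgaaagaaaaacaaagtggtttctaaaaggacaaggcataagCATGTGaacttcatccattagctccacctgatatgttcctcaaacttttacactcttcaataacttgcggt

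SAUR13 (chr4:18121396-18121525, plus strand): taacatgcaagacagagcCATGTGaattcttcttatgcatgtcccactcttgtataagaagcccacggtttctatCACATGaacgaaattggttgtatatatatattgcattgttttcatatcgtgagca

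SAUR19 (chr5:5963406-5963535, minus strand): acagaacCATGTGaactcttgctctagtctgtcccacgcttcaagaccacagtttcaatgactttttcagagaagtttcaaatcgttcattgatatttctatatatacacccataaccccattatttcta

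The matches began 19 to 123 bp before the start, with a pair of them at *SAUR61* (−117 and −81) and at *SAUR13* (−112 and −55). *SAUR61*, *AT1G29490* and *SAUR19* belong to clusters without any summit. *SAUR51*, *SAUR6*, *SAUR1* and *SAUR13* belong to clusters with sites of 4 libraries.

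Other genes of the pathway, from a list chosen by role, were read in the same way. The counts stand against 14.9% of all genes in all 4 lists. Among the factors that act on *SAUR* promoters, summits of all 4 libraries were found at 4 of 5 activating auxin response factors (*MP*, *ARF6*, *ARF8* and *ARF19*, not *NPH4*) and at 5 of 6 others (*PIF4*, *PIL6*, *PIF7*, *BZR1* and *BES1*, not *HY5*). At *MP* the best summits were 1945 and 1987 bp upstream for BRIP2 but 184 and 109 bp upstream for BRIP1. At *PIL6* they were 1036 and 1044 bp upstream for BRIP2 but 220 and 221 bp downstream for BRIP1. At *ARF19* they were 5249 to 5331 bp downstream of the start. Among auxin receptors the count was 2 of 6, *TIR1* and *AFB2*. *ARF8* had folds of 4.63 and 3.55 for BRIP2 and 2.68 and 2.96 for BRIP1 at its start site, and *PIF7* 3.81 and 3.26 for BRIP2 and 3.54 and 3.32 for BRIP1 1089 to 1234 bp upstream. Downstream of the SAUR proteins, 3 of 9 PP2C.D genes (*AT5G02760*, *AT3G12620* and *AT4G38520*) and 0 of 2 proton pumps (*HA1*, *HA2*) were in all 4 lists. Other auxin genes were taken by symbol alone (*IAA*, *ARF* or *GH3* and a number), so *MP* and *NPH4* were not among them. All 4 lists held 7 of 24 *IAA* genes (29.2%), 6 of 22 *ARF* genes (27.3%) and 1 of 5 *GH3* genes (20.0%). The shares were 24 of 79 for *SAUR* genes (30.4%) and 14.9% for all genes. The *SAUR* share was close to that of the genes with *IAA* and *ARF* symbols.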

How the data were processed

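The members and lists were chosen with earlier results of these data known. The authors ran MACS2 2.1.1 on each library by itself, on TAIR10, and the submitters' processing notes also name Bowtie and deepTools. No source used here gives the control library, the parameters or the read length. A deposited list holds, per peak, its position and summit, a fold over local control (ratio), p-values and q-values as −log10, and an unused integer score. The lowest −log10 q was 2.04.

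Peaks were read in Python 3.11.15 (NumPy 2.4.6, SciPy 1.17.1, Biopython 1.88) against RefSeq TAIR10.1, whose nuclear chromosomes contain every peak. The pileup was solved from fold and p and was whole within 0.05 for 99.8 to 99.9% of the peaks. Peaks overlapping by 1 bp or more formed a region. Counts of members have no test; proteins were compared by exact permutation of the libraries. Proteins were translated from the genome and aligned globally (BLOSUM62), identity being taken over the shorter one. Functions were tested on simulated lists.

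Members in all 4 lists were named by the 12 highest mean folds, with members of a single protein, of a cluster or of known role. Alternatives were stricter q and fold, equal list lengths, other windows and overlaps, cluster gaps, motif windows, each library left out, the replicate block and, chosen after seeing the data, the family without AT5G01830.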

Additional observations from a re-analysis of the deposited data

How the results depend on the processing

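With −log10 q of 10 or more, the members in all 4 lists, both BRIP2 and both BRIP1 lists numbered 13, 17 and 15 (8.55, 13.6 and 9.79% of all genes), those of BRIP2 alone 1 (1.74%), and the sites 11. With fold of 3 or more the same values were 7, 9, 8 (3.97, 8.71 and 4.34%), 0 (2.99%) and 5, and 1 member was of BRIP1 alone (0.0765%). With lists of equal length 0 members were of BRIP2 alone (1.05%), and the BRIP2 minus BRIP1 difference in members with a summit was −2.5, in the other direction. Without centring the fold difference was 0.10, also in the other direction. From 1000 bp upstream to the 3′ end, the members in all 4, both BRIP2 and both BRIP1 lists numbered 11, 15 and 12 (6.96, 14.2 and 7.72%), with 6 tandem and 5 single members in all 4. With the nearest TSS 8 tandem members were in all 4 (9.54% of all genes). Motif shares moved with the window: within 50 bp TGTCTC and CGTGCG were at 0% of sites (9.66 and 1.91% of all regions) and GGNCCC at 8.33% (13.5%), and within 150 bp CATGTG was at 37.5%, against 27.5% of all regions. The cause of these changes was not tested.

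Leaving out 1 library gave 24 to 26 members in all remaining lists (15.1 to 20.5% of all genes), 29 to 40 for BRIP2 (26.7 to 36.1%) and 25 to 30 for BRIP1 (15.8 to 24.1%), 3 to 10 of BRIP2 alone (6.25 to 12.7%), 0 to 1 of BRIP1 alone (0.292 to 1.00%), 24 to 29 sites, differences of 3 to 12 members and of −0.14 to −0.11 in centred log2 fold. The replicate numbers pair no samples by the labels. With the number as a replicate block the differences were 7.5 members and −0.13 (exact sign-flip p = 0.50 each, the smallest that 2 pairs allow). Without AT5G01830 the members in all 4 lists numbered 23 of 78. Neither comparison of the proteins can pass a threshold with 2 libraries each, and a member without a peak in a short list such as BRIP1 replicate 1 may still be bound.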
